A study of Homo sapiens with 15 samples.

Results

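Collagens are extracellular proteins built from chains that wind into triple helices, and each chain is encoded by its own gene. The chains examined here are all genes measured on the array whose symbol reads COL, a number, A and a number, without COL17A1. This gave 32 chains among 11963 genes with a probe set of a single annotated symbol, and 73 probe sets in all. Each chain was represented by its probe set with the highest mean over all arrays, and 22 chains had more than 1 probe set. The mean includes the treated arrays, so a chain that rose strongly, such as COL2A1, is represented by a probe set in which that rise counts.

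The cells were MCF-10A, an immortalized, non-tumorigenic human mammary epithelial line, so every group stands for 1 line. p63, a relative of p53, is a transcription factor made in the basal layer of epithelia. In the knockdown arm there were 2 arrays each of an shRNA vector control, of shDBD (an shRNA to the DNA-binding domain that all p63 isoforms share) and of shTA (an shRNA to the isoforms with the transactivating domain). The overexpression arm had 3 arrays each of a vector control, of ΔNp63α, an isoform without that domain, and of TAp63γ, which carries it. The isoforms also differ in form, α against γ, and the parts of these differences in a direct comparison cannot be told apart. All RNA was taken 48 h after retroviral or adenoviral infection, which the control cells also received; the labels do not say which virus served which arm. The replicates are called biological, and no label says whether each came from its own infection, so the p-values reflect only how much these samples vary. The p63 transcript was not analysed here. The knockdown arrays had medians of 7.189 to 7.213 and the overexpression arrays of 6.951 to 6.983, so levels were compared only within an arm. Replicate arrays correlated at 0.9925 to 0.998. Of the measured epithelial markers, 7 of 7 lay above the 20th percentile of their arrays in every group. All 4 measured immune markers did so too, so this limit cannot test the label. The mean level in the shRNA vector was 12.21 to 12.29 for the epithelial and 6.61 to 6.717 for the immune markers.

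Epithelial cells rest on a basement membrane. Its sheet is a network of type IV collagen, made of 6 possible chains that combine into fixed trimers: the COL4A1 chain with COL4A2, the COL4A3 chain with COL4A4 and COL4A5, and the COL4A5 chain with COL4A6. Type VII collagen (COL7A1) forms the anchoring fibrils that tie this sheet of skin and other stratified epithelia to the connective tissue beneath. The fibrillar collagens of that tissue, such as types I, III and V, come mainly from fibroblasts, while type II (COL2A1) is the main collagen of cartilage.

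Levels are RMA values on a log2 scale, so a difference of 1 is a 2-fold change. RMA is a method that corrects the background, equalizes the distributions of the arrays and summarizes the probes of a set. A gene passed when its adjusted p from limma, a linear model fitted to all genes with Benjamini-Hochberg adjustment over them, was under 0.05. A level below the 20th percentile of the arrays (5.063 to 5.421) was treated as too dim to tell from background. By this limit 7 chains lay below in all 6 groups, 23 above in all 6, and 2 below in some groups. The 7 dim chains were COL3A1, COL4A4, COL8A1, COL9A3, COL11A1, COL15A1 and COL21A1. Nearest to the limit in the shRNA vector were COL3A1, 0.0719 below it, and COL6A3, 0.0723 above it. In the overexpression vector these were COL6A3, 0.0976 below, and COL14A1, 0.169 above.

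With shDBD, 2 of 32 chains rose and 2 fell against the vector (12.5% passed, against 21.3% of all genes, of which 11.1% rose and 10.2% fell). With shTA, 0 rose and 1 fell (3.12%, against 2.29% of all genes, 1.44% up and 0.853% down). With ΔNp63α, 3 rose and 1 fell (12.5%, against 28.9% of all genes, 12.3% up and 16.6% down). With TAp63γ, 4 rose and 5 fell (28.1%, against 43.4% of all genes, 20.5% up and 22.8% down). Set against each other directly, 4 chains were higher and 2 lower with shDBD than with shTA (18.8%, against 18.4% of all genes, 9.14% higher and 9.23% lower). Likewise 7 were higher and 4 lower with ΔNp63α than with TAp63γ (34.4%, against 39.8% of all genes, 19.2% higher and 20.6% lower). Against the vectors, the median difference of the chains was −0.01, −0.00342, 0.02 and −0.02 in that order, beside 0.000431, −0.00988, −0.00485 and −0.02 over all genes. The share of chains that passed lay below that of all genes with shDBD, ΔNp63α and TAp63γ and near it with shTA and between the hairpins. In the 18 values that passed against a vector the arrays of both groups did not overlap, which also held for 100% of all genes that passed with either hairpin, 93.9% with ΔNp63α and 96% with TAp63γ. Of the 32 chains, 21 passed against no vector (65.6%, against 43.5% of all genes), 6 in 1, 4 in 2 and COL4A1 in all 4, which 98 genes did (0.819%). Comparisons within an arm share their vector arrays. In bulk RNA, fewer cells of a kind and less RNA per cell cannot be told apart.

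**Figure D1:**
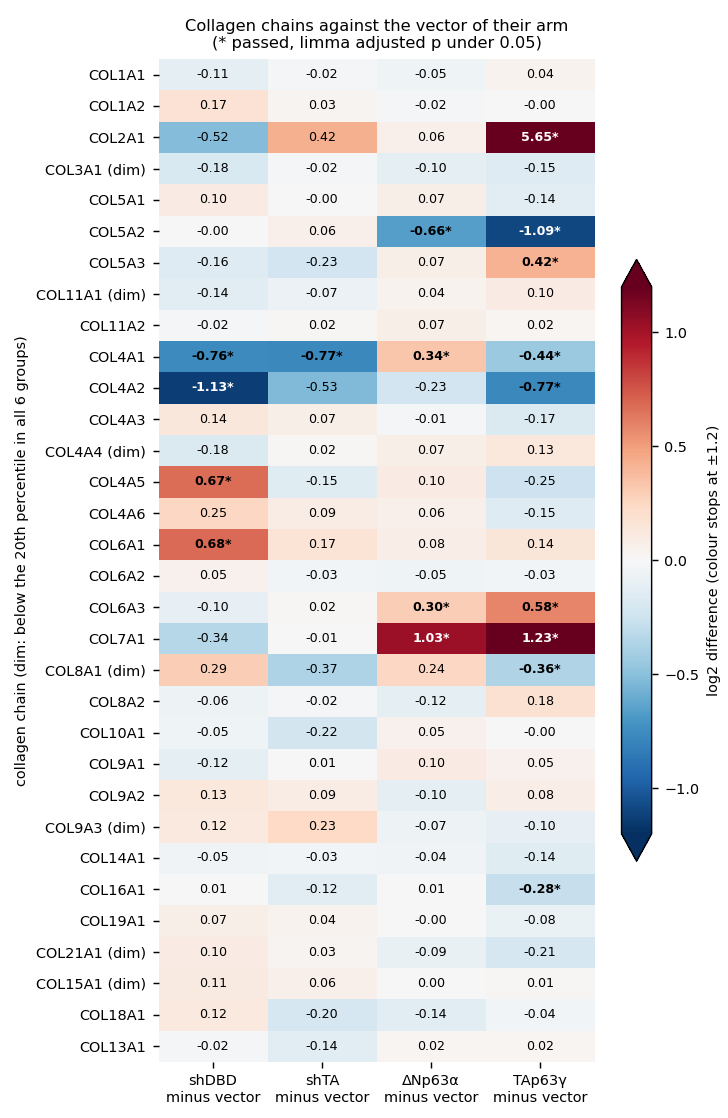
Log2 difference of each of the 32 collagen chains (rows, ordered by structural class) from the vector of its arm (columns: shDBD and shTA, n = 2 arrays per group; ΔNp63α and TAp63γ, n = 3). Asterisks mark the values that passed, and dim chains lay below the 20th percentile in all 6 groups; the colour stops at ±1.2, so COL2A1 with TAp63γ (5.65) lies far beyond it.

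Of the 6 type IV chains, 2 fell and 1 rose with shDBD (50%, against 21.3% of all genes, of which 10.2% fell and 11.1% rose). With shTA 1 fell (16.7%, against 2.29% of all genes, of which 0.853% fell). These few values are of COL4A1, COL4A2 and COL4A5. COL4A1, which forms the common trimer of all basement membranes, read 8.07 and 8.09 in the shRNA vector, 7.29 and 7.34 with shDBD, and 7.24 and 7.38 with shTA. All 4 hairpin arrays were thus lower than both vector arrays. It fell by 0.76 ± 0.11 (SE) with shDBD (1.7-fold, limma adjusted p = 7.68e-05) and by 0.77 ± 0.11 with shTA (1.71-fold, adjusted p = 0.000684). Between the hairpins it differed by 0.01 ± 0.11 (95% interval −0.22 to 0.23, adjusted p = 0.982). The second probe set of COL4A1 also fell, by 1.1 ± 0.12 with shDBD and by 0.79 ± 0.12 with shTA, a difference of −0.31 ± 0.12 between the hairpins that did not pass (adjusted p = 0.111).

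COL4A2, the partner chain, read 9.8 and 9.73 in the vector, 8.73 and 8.53 with shDBD, and 9.32 and 9.16 with shTA. The groups followed each other without overlap, with shTA between the vector and shDBD. COL4A2 fell by 1.13 ± 0.17 with shDBD (2.19-fold, limma adjusted p = 0.000145), and its second probe set fell by 1.12 ± 0.25. With shTA its difference was −0.53 ± 0.17, which did not pass (adjusted p = 0.138). It was lower with shDBD than with shTA by −0.61 ± 0.17 (adjusted p = 0.0191), a call that was lost without shDBD replicate 2, without either shTA replicate, and with the mean of its probe sets (largest adjusted p = 0.154).

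COL4A5, a chain of the other type IV trimers, moved the opposite way with shDBD. It read 9.68 and 9.6 in the vector, 10.16 and 10.46 with shDBD, and 9.53 and 9.46 with shTA. Both shDBD arrays were higher than every other array of the arm. COL4A5 rose by 0.67 ± 0.12 with shDBD (1.59-fold, limma adjusted p = 0.000785), differed by −0.15 ± 0.12 with shTA (adjusted p = 0.696), and was higher with shDBD than with shTA by 0.81 ± 0.12 (adjusted p = 0.000177). COL4A5 had no other probe set. COL4A6, its partner chain, differed by 0.25 ± 0.1 with shDBD (95% interval 0.04 to 0.46) and did not pass (adjusted p = 0.0927). The other 2 probe sets of COL4A6 gave 0.0041 ± 0.19 and −0.00368 ± 0.08 with shDBD and did not pass. COL4A3 and the dim COL4A4 did not pass in any comparison with a vector.

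In the overexpression arm, 1 of the 6 type IV chains rose with ΔNp63α (16.7% passed, against 28.9% of all genes). With TAp63γ 2 fell (33.3%, against 43.4% of all genes). Both shares lay below those of all genes. Directly between the isoforms, 4 were higher with ΔNp63α (66.7%, against 39.8% of all genes). COL4A1 moved in opposite directions with the isoforms. It read 8.57, 8.58 and 8.47 in the vector, 8.93, 8.68 and 9.01 with ΔNp63α, and 8.16, 8.04 and 8.08 with TAp63γ. The isoform groups lay on either side of the vector arrays, without overlap. COL4A1 rose by 0.34 ± 0.09 with ΔNp63α (1.26-fold, limma adjusted p = 0.00777) and fell by 0.44 ± 0.09 with TAp63γ (1.36-fold, adjusted p = 0.000527). The isoforms differed by 0.78 ± 0.09 (adjusted p = 3.84e-06). The second probe set gave 0.27 ± 0.1 with ΔNp63α, which did not pass (adjusted p = 0.0633), and −0.31 ± 0.1 with TAp63γ (adjusted p = 0.0231).

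COL4A2 read 9.18, 9.64 and 9.4 in the overexpression vector, 9.43, 9.18 and 8.91 with ΔNp63α, and 8.84, 8.53 and 8.54 with TAp63γ. The ΔNp63α arrays overlapped those of the vector, whereas the TAp63γ arrays were lower than all of them. COL4A2 fell by 0.77 ± 0.14 with TAp63γ (1.71-fold, limma adjusted p = 0.000241) and differed by −0.23 ± 0.14 with ΔNp63α (95% interval −0.53 to 0.06, adjusted p = 0.244). COL4A5 did not pass with either isoform (0.1 ± 0.1 with ΔNp63α and −0.25 ± 0.1 with TAp63γ, adjusted p = 0.517 and 0.0544). Its direct difference between the isoforms passed, at 0.35 ± 0.1 higher with ΔNp63α (adjusted p = 0.0101). COL4A2 was also higher with ΔNp63α than with TAp63γ, by 0.54 ± 0.14 (adjusted p = 0.00533), and COL4A6 by 0.22 ± 0.08 (adjusted p = 0.0444), which held in 9 of 25 other settings (largest adjusted p = 0.196).

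**Figure D2:**
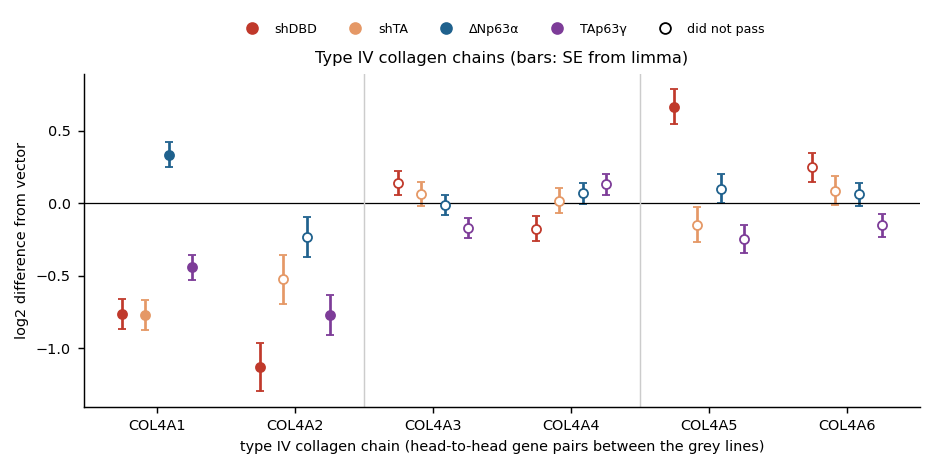
Log2 difference from the vector (vertical axis) of the 6 type IV collagen chains, with SE bars from limma; filled points passed and open points did not. COL4A1 and COL4A2 lie below 0 with shDBD and TAp63γ, COL4A5 lies at 0.67 with shDBD, and only COL4A1 passed upward with ΔNp63α.

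COL4A1 and COL4A2 lie head to head on chromosome 13, and in the RefSeq table (GRCh38.p14) their starts are separated by 126 bases, so the stretch between them is upstream of both genes. It is shown because these partner chains fell together with shDBD and TAp63γ. The 250 bases upstream of COL4A5, the chain that rose with shDBD, and of COL7A1, which rose with both isoforms, are shown beside it. Capitals mark the matches, on either strand, to a GC box, which binds Sp1 (letters GGGCGG). They also mark the CCAAT box, which binds NF-Y and is named for its letters, and the TATA box near which transcription can start (letters TATAAA). The first is chr13:110307158-110307283 on the plus strand, the second is chrX:108439588-108439837 on the plus strand, and the third is chr3:48595330-48595579 on the minus strand, each 5′ to 3′.
COL4A1/COL4A2: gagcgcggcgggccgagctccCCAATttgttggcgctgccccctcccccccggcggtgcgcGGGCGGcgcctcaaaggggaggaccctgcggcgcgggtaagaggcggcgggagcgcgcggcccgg
COL4A5: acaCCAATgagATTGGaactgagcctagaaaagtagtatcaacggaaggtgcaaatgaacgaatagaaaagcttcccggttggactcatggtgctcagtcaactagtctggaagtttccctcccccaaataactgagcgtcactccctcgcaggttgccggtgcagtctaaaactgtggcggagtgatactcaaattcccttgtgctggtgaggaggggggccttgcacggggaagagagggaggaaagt
COL7A1: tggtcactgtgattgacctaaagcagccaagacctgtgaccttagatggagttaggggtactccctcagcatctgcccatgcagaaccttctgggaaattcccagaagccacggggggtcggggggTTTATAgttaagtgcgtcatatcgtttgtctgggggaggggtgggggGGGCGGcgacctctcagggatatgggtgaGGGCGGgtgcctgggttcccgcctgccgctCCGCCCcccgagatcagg

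The stretch shared by COL4A1 and COL4A2 is 80.2% G and C and holds a CCAAT box and a GC box. The COL4A5 stretch, at 51.2%, holds CCAAT boxes on both strands and no GC box, and the COL7A1 stretch, at 60.8%, holds 3 GC boxes, and a TATA box on the strand opposite to the one printed. No window was available for COL1A1, COL1A2, COL2A1, COL3A1, COL5A2, COL6A1, COL8A1, COL9A3 and COL14A1, so the shares below leave these chains out. Of the 32 chains, 23 matched the promoter table by symbol, with 34 windows of 250 bases upstream of a start. Among these windows 55.9% held a GC box, 29.4% a CCAAT box and 17.6% a TATA box, against 42.6%, 32% and 10.7% of all 35116 windows. The AP-1 site (TGANTCA) was in 2.94% of the chains' windows and 6.57% of all, and the p53 family decamer, the short unit of the sequence bound by p53 and p63, in 0 of 34 and in 5.57% of all. These letters describe the windows alone.

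The level of COL4A1 minus that of COL4A2, a contrast added after the values were seen, was −0.61, −1.06 and −0.94 in the overexpression vector arrays. It was −0.5, −0.5 and 0.1 with ΔNp63α, where every array was higher than every vector array. The difference was 0.57 (exact two-sided permutation test, p = 0.1, the smallest that 3 against 3 arrays allow, and 0.4 adjusted over the 6 comparisons). With so few arrays this test could not reach 0.05, so it cannot decide whether the chains changed unequally. With TAp63γ the values were −0.68, −0.49 and −0.46 and overlapped those of the vector (difference 0.33, exact p = 0.2) and of ΔNp63α (difference between the isoforms 0.24, exact p = 0.6). In the knockdown arm the values were −1.73 and −1.64 in the vector, −1.45 and −1.19 with shDBD, and −2.08 and −1.78 with shTA, without overlap. The differences were 0.37 with shDBD, −0.25 with shTA and 0.61 between the hairpins, each with an exact permutation p of 0.333, the smallest that 2 arrays against 2 allow.

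COL7A1, the chain of anchoring fibrils, rose with both isoforms. It read 7.18, 7.1 and 7.14 in the overexpression vector, 8.2, 8.17 and 8.14 with ΔNp63α, and 8.58, 8.12 and 8.41 with TAp63γ. All 6 isoform arrays were higher than the vector arrays, and the isoform groups overlapped each other. The rise was 1.03 ± 0.1 with ΔNp63α (2.04-fold, limma adjusted p = 1.2e-06) and 1.23 ± 0.1 with TAp63γ (2.34-fold, adjusted p = 6.27e-08). The isoforms differed by −0.2 ± 0.1 (95% interval −0.41 to 0.01, adjusted p = 0.122). The second COL7A1 probe set rose by 1.32 ± 0.11 and 1.64 ± 0.11, respectively. On that probe set the difference between the isoforms, −0.32 ± 0.11, passed (adjusted p = 0.0335), so the probe sets disagree on this call.

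In the knockdown arm COL7A1 read 7.99 and 7.99 in the vector, 7.75 and 7.55 with shDBD, and 8.03 and 7.94 with shTA. Both shDBD arrays were lower than the others. The difference with shDBD was −0.34 ± 0.12 (95% interval −0.6 to −0.08) and did not pass (limma adjusted p = 0.0587). The mean of both probe sets gave −0.31 ± 0.08, which passed (adjusted p = 0.00758).

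Among the fibrillar chains, COL2A1 of cartilage showed the widest change of any collagen. It read 4.63, 4.74 and 4.41 in the overexpression vector, 4.68, 4.54 and 4.75 with ΔNp63α, and 10.33, 10.03 and 10.36 with TAp63γ. The vector and ΔNp63α arrays overlapped and lay below the 20th percentile, while all TAp63γ arrays were far above it. The measured rise with TAp63γ was 5.65 ± 0.18 (limma adjusted p = 1.61e-12). Since the vector level was too dim to tell from background, only a bound can be given: with each array floored at its 20th percentile the rise was 5.15, or at least 35.4-fold. Among all 11963 genes floored alike this was rank 5 by size. The second probe set rose by 4.99 ± 0.11. With ΔNp63α the difference was 0.06 ± 0.18 (95% interval −0.32 to 0.45, adjusted p = 0.851). Between the isoforms the measured COL2A1 difference was −5.59 ± 0.18 (adjusted p = 9.93e-12). The ΔNp63α level was dim as well, and with floored arrays the difference was −5.12, at least 34.8-fold lower with ΔNp63α and rank 1 by size among all genes floored alike.

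In the knockdown arm COL2A1 was low and scattered, at 5.92 and 5.9 in the vector, 5.69 and 5.09 with shDBD, and 5.92 and 6.75 with shTA. It did not pass against the vector with shDBD (−0.52 ± 0.22, limma adjusted p = 0.117) or shTA (0.42 ± 0.22, adjusted p = 0.457). The mean with shDBD, 5.389, was just below the 20th percentile of 5.401. The second probe set did pass with shDBD, at −0.47 ± 0.14 (adjusted p = 0.0246), but at levels below the 20th percentile in both groups (5.12 and 4.651). On the first probe set COL2A1 was lower with shDBD than with shTA by −0.95 ± 0.22 (adjusted p = 0.00647). This call was lost without shDBD replicate 2 (−0.65) or without shTA replicate 2 (−0.53).

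The collagens that accompany type II in cartilage did not follow it. COL9A1, COL9A2 and the dim COL9A3, of the type IX collagen on the surface of type II fibrils, did not pass in any comparison with a vector. Neither did COL11A2 and the dim COL11A1, of the type XI collagen within those fibrils, nor COL10A1, the collagen of hypertrophic cartilage. With TAp63γ these 6 chains differed from the vector by −0.1 to 0.1. Of 7 further cartilage genes, looked at after the COL2A1 values were seen, SOX9, the transcription factor that activates COL2A1 in chondrocytes, and MATN3, a matrix protein, passed with TAp63γ. SOX9 read 5.62, 6.08 and 5.92 in the vector, 7.83, 7.81 and 7.81 with ΔNp63α and 8.81, 8.52 and 8.81 with TAp63γ, without overlap of any groups. It rose by 1.94 ± 0.11 and 2.84 ± 0.11 (limma adjusted p = 3.24e-09 and 1.46e-11), so SOX9 rose with both isoforms and COL2A1 with TAp63γ. In the knockdown arm SOX9 read 9.31 and 9.45 in the vector, 9.45 and 9.64 with shDBD, and 9.34 and 9.35 with shTA. It did not pass there (0.16 with shDBD and −0.04 with shTA), and COL2A1 lay between 5.09 and 6.75. A link of SOX9 to COL2A1 was not tested. MATN3 rose by 0.59 ± 0.11 with TAp63γ (adjusted p = 0.000467), from 3.65 to 4.25, both below the 20th percentile. ACAN, COMP, HAPLN1, MATN1 and SOX5 did not pass in any comparison.

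COL5A2, a chain of the type V collagen that sets the width of type I fibrils, fell with both isoforms. It read 7.65, 7.23 and 7.43 in the overexpression vector, 6.84, 6.64 and 6.86 with ΔNp63α, and 6.31, 6.47 and 6.27 with TAp63γ. The groups followed each other without overlap. COL5A2 fell by 0.66 ± 0.1 with ΔNp63α (1.58-fold, limma adjusted p = 0.00017) and by 1.09 ± 0.1 with TAp63γ (2.13-fold, adjusted p = 4.2e-07), and its second probe set by 0.54 ± 0.13 and 0.58 ± 0.13. The first probe set was lower with TAp63γ than with ΔNp63α by a difference of 0.43 ± 0.1 (adjusted p = 0.00367). The second gave 0.04 for that difference and did not pass. In the knockdown arm COL5A2 lay between 6.08 and 6.31 on all 6 arrays.

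COL5A3, another type V chain, read 6.61, 6.49 and 6.62 in the vector, 6.69, 6.62 and 6.62 with ΔNp63α, and 7.21, 6.88 and 6.89 with TAp63γ. Only the TAp63γ arrays were clear of the others. It rose by 0.42 ± 0.09 with TAp63γ (1.34-fold, limma adjusted p = 0.000918), and by 0.46 ± 0.09 on its second probe set. COL5A1, the third type V chain, did not pass in any comparison.

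The probe sets of COL1A1, a chain of type I collagen, the main fibrillar collagen of skin and bone, disagreed. The one with the highest mean read 8.01, 7.96 and 8.03 in the overexpression vector, 7.71, 8.14 and 7.99 with ΔNp63α, and 8.15, 7.94 and 8.01 with TAp63γ, with all groups overlapping. It did not pass in any comparison: against a vector it differed by −0.11 ± 0.12 with shDBD (95% interval −0.37 to 0.15), −0.02 ± 0.12 with shTA (−0.28 to 0.24), −0.05 ± 0.1 with ΔNp63α (−0.26 to 0.16) and 0.04 ± 0.1 with TAp63γ (−0.17 to 0.25).

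Another COL1A1 probe set read 4.68, 4.61 and 4.53 in the overexpression vector, below the 20th percentile, 5.29, 5.28 and 5.29 with ΔNp63α, and 7.05, 6.18 and 6.45 with TAp63γ. These groups followed each other without overlap. On this probe set the level was higher by 0.68 ± 0.15 with ΔNp63α (limma adjusted p = 0.0027) and by 1.95 ± 0.15 with TAp63γ (adjusted p = 3.99e-08), and it did not pass with either hairpin (0.36 and 0.19). A dim probe set of the same chain passed with TAp63γ (0.41 ± 0.08, adjusted p = 5e-04), and the last did not pass (−0.22 ± 0.1). The mean of the 4 probe sets gave 0.55 ± 0.07 with TAp63γ (adjusted p = 1.78e-05), so whether COL1A1 is counted as changed with TAp63γ depends on the probe set.

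COL1A2, the other type I chain, did not pass in any of the 6 comparisons. Against a vector it ranged from −0.02 with ΔNp63α to 0.17 with shDBD. COL3A1, the type III chain, lay below the 20th percentile throughout.

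**Figure D3:**
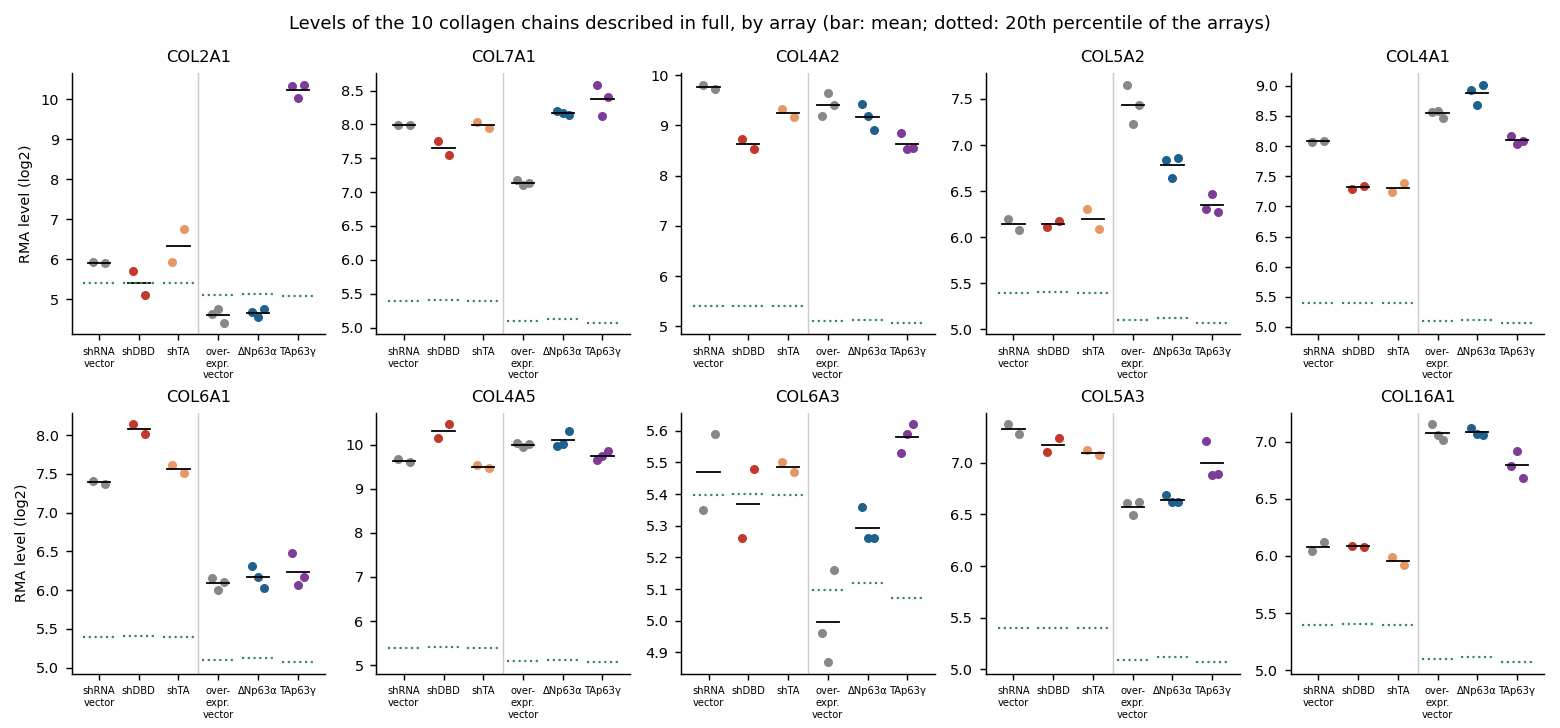
RMA level (log2, vertical axes differ) of the 10 chains described in full, one point per array in each of the 6 groups; bars are group means, dotted lines the mean 20th percentile of the arrays, and the grey line divides the arms. COL2A1 lies above 10 with TAp63γ and below 5 with its vector, and COL4A1 is lower with both hairpins.

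COL6A1 and COL6A3 are chains of type VI collagen, which forms beaded filaments next to basement membranes. COL6A1 read 7.41 and 7.37 in the shRNA vector, 8.14 and 8.01 with shDBD, and 7.61 and 7.51 with shTA. It rose by 0.68 ± 0.12 with shDBD (1.6-fold, limma adjusted p = 0.000834). This rests on 1 of its 8 probe sets: the other 7 differed by −0.1 to 0.31 and did not pass, and the mean of all 8 gave 0.16 (adjusted p = 0.0959). COL6A1 was also higher with shDBD than with shTA, by 0.51 ± 0.12 (adjusted p = 0.00788). There 2 of the other probe sets passed in the same direction (0.35 ± 0.1 and 0.31 ± 0.1, adjusted p = 0.0314 and 0.0454). That call held in 22 of 25 other settings and was lost with the mean of the probe sets.

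COL6A3 read 4.96, 4.87 and 5.16 in the overexpression vector, 5.36, 5.26 and 5.26 with ΔNp63α, and 5.53, 5.59 and 5.62 with TAp63γ. These levels climbed across the limit of the 20th percentile, from 0.0976 below it to 0.507 above. COL6A3 rose by 0.58 ± 0.09 with TAp63γ (1.5-fold, limma adjusted p = 4.29e-05) and by 0.3 ± 0.09 with ΔNp63α (1.23-fold, adjusted p = 0.0165), or 0.47 and 0.19 with floored arrays. The ΔNp63α call was lost without overexpression vector replicate 1 or 2 or ΔNp63α replicate 1 (largest adjusted p = 0.0814). COL6A2 did not pass in any comparison.

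Few chains of the other classes passed on the probe set with the highest mean. COL16A1, which belongs to the collagens that attach to fibrils, read 7.15, 7.06 and 7.01 in the overexpression vector, 7.12, 7.07 and 7.06 with ΔNp63α, and 6.79, 6.92 and 6.68 with TAp63γ. It fell by 0.28 ± 0.07 with TAp63γ (1.21-fold, limma adjusted p = 0.00517). COL8A1, a network collagen, passed with TAp63γ (−0.36 ± 0.09) but lay below the 20th percentile in all groups, and the floored difference was −0.02. COL18A1, a basement membrane proteoglycan, was higher with shDBD than with shTA by 0.32 ± 0.08 (adjusted p = 0.0144), a call lost with the mean of its probe sets and without shDBD replicate 2 or shTA replicate 2 (largest adjusted p = 0.262), and it did not pass against a vector. COL8A2, the partner network chain, was lower with ΔNp63α than with TAp63γ (−0.3 ± 0.09, adjusted p = 0.0104) and did not pass against the vector. Its other probe set read 5.09, 5.27 and 5.25 in the overexpression vector, 5.27, 5.22 and 5.05 with ΔNp63α, and 6.22, 5.84 and 6.31 with TAp63γ, where all 3 arrays were higher than the rest. It was higher with TAp63γ than with the vector by 0.92 ± 0.11 (adjusted p = 4.72e-06), and the mean of both probe sets by 0.55 ± 0.07 (adjusted p = 1.8e-05). Of the 3 probe sets of COL13A1, a transmembrane collagen, 1 passed with ΔNp63α (0.5 ± 0.07, adjusted p = 7.59e-05), at levels below the 20th percentile in both groups. The chains that did not pass ranged from −0.52 to 0.3 with shDBD, −0.53 to 0.42 with shTA, −0.23 to 0.25 with ΔNp63α and −0.25 to 0.18 with TAp63γ.

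Of the 18 values that passed against a vector, 14 were of chains with several probe sets. In 11 of these another probe set passed in the same direction, and in 0 another passed in the opposite direction. Of the 110 values that did not pass, 74 were of chains with several probe sets, and in 6 of these another probe set passed. They were COL1A1 and COL13A1 with ΔNp63α, COL1A1, COL8A2 and COL6A1 with TAp63γ, and COL2A1 with shDBD. For COL6A1 with TAp63γ, 1 probe set was higher (0.4 ± 0.09) and 1 lower (−0.19 ± 0.07).

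**Figure D4:**
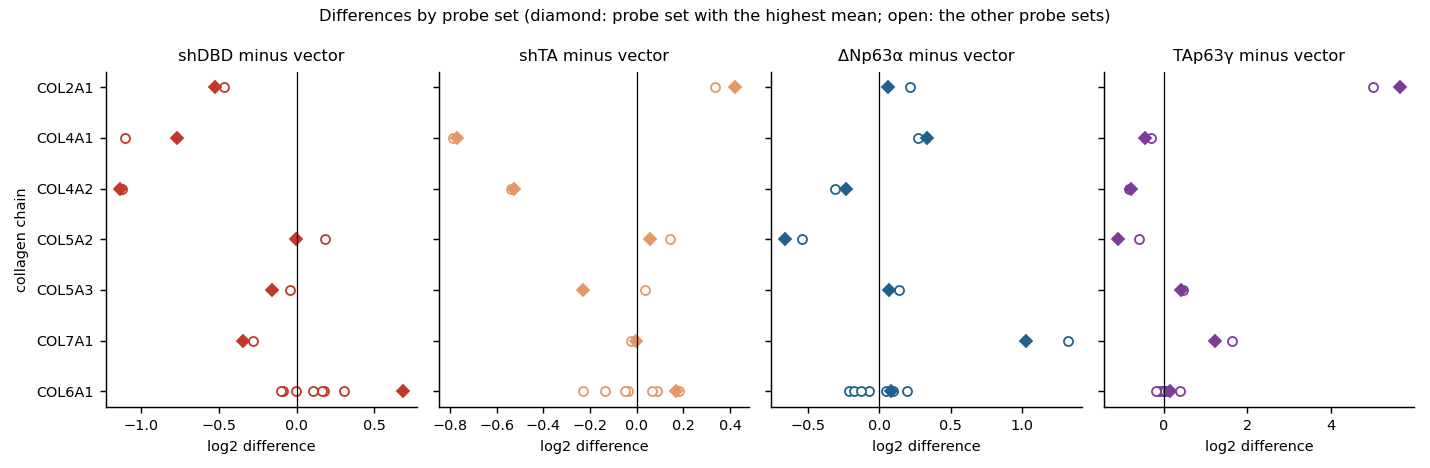
Log2 difference from the vector (horizontal axes differ) for every probe set of 7 chains with several probe sets and a passing value; diamonds mark the probe set with the highest mean. Both COL2A1 probe sets lie near 5 or above with TAp63γ, both COL7A1 probe sets lie above 1 with the isoforms, and 1 of the 8 COL6A1 probe sets stands apart with shDBD.

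Neighbouring collagen genes were compared by their position in the RefSeq table. There 6 pairs of chains had no other protein-coding gene between them: COL4A1 with COL4A2, COL4A3 with COL4A4, COL4A5 with COL4A6, COL6A1 with COL6A2, COL3A1 with COL5A2, and COL9A1 with COL19A1. Against a vector, COL4A1 with COL4A2 was the only one of the 6 pairs in which both members passed in the same comparison, with shDBD and with TAp63γ. In the pairs of COL4A5, COL6A1 and COL5A2 the neighbour did not pass where that chain did. How often both members pass among neighbouring pairs of all genes was not computed. Of all genes, 21.3% passed with shDBD and 43.4% with TAp63γ. Whether the shared calls of COL4A1 and COL4A2 exceed what is usual for neighbours was therefore not tested.

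Across the arms, which share no arrays, 4 chains passed with shDBD and 4 with ΔNp63α. COL4A1 passed in both (1 of 4 in each list) and moved in opposite directions, as did 57.9% of the 1245 genes that passed in both. With shDBD and TAp63γ, COL4A1 and COL4A2 passed in both (2 of 4 and 2 of 9), falling in each, where 42.2% of 1615 shared genes moved in opposite directions. COL4A1 also passed in opposite directions with shTA and ΔNp63α, as did 47.8% of 161 shared genes, and in the same direction with shTA and TAp63γ, where 48.8% of 207 shared genes moved in opposite directions. These are counts of 1 or 2 chains.

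Collagen chains are hydroxylated, folded, trimmed and cross-linked by other proteins, and 28 of 33 listed genes of this kind were measured. With shDBD, 3 rose and 4 fell (25%, against 21.3% of all genes). P4HA1, a catalytic subunit of prolyl 4-hydroxylase, rose by 1.18 ± 0.1 (limma adjusted p = 6.32e-07), LOX, the lysyl oxidase that cross-links fibrils, by 1.38 ± 0.2 (adjusted p = 9.85e-05), and the collagen chaperone FKBP10 by 0.91 ± 0.18. PLOD1, a lysyl hydroxylase, fell by 0.61 ± 0.12, the oxidase LOXL1 by 0.54 ± 0.08, the collagen galactosyltransferase COLGALT1 by 0.53 ± 0.12 and the protease FURIN by 0.41 ± 0.13. With shTA 1 rose and 1 fell (7.14%, against 2.29% of all genes): LOX rose by 1.12 ± 0.2 (adjusted p = 0.00591) and LOXL1 fell by 0.34 ± 0.08 (adjusted p = 0.0433). The vector level of LOX lay below the 20th percentile.

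With ΔNp63α, 4 of the 28 rose and 5 fell (32.1%, against 28.9% of all genes). P4HA2, another prolyl hydroxylase subunit, rose by 0.53 ± 0.13, P3H2, a prolyl 3-hydroxylase, by 0.5 ± 0.14, the collagen chaperone SERPINH1 by 0.36 ± 0.11 and PLOD1 by 0.35 ± 0.1. LOXL1 fell by 1.37 ± 0.07 (limma adjusted p = 6.09e-10), the prolyl 3-hydroxylase partner CRTAP by 0.68 ± 0.12, the isomerase PPIB by 0.67 ± 0.19 and P3H4 by 0.57 ± 0.11.

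With TAp63γ, 9 of the 28 rose and 6 fell, a share of 53.6% against 43.4% of all genes. P4HA2 rose by 1.5 ± 0.13 (limma adjusted p = 1.08e-07), the procollagen protease BMP1 by 0.71 ± 0.13, its relative TLL2 by 0.59 ± 0.11 and P3H2 by 0.48 ± 0.14. LOXL2 fell by 0.93 ± 0.06 (adjusted p = 1.05e-08), P3H4 by 0.77 ± 0.11, LOXL1 by 0.64 ± 0.07 and FKBP10 by 0.63 ± 0.15. P4HB, the shared subunit of prolyl 4-hydroxylase, did not pass with any treatment (−0.07 to 0.11). PPIB did not pass with shDBD, shTA or TAp63γ.

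Of 12 listed receptors and turnover genes, 10 were measured, of which 4 passed with shDBD (40%, against 21.3% of all genes), 1 with shTA (10%, against 2.29%), 4 with ΔNp63α (40%, against 28.9%) and 5 with TAp63γ (50%, against 43.4%). ITGA2, the integrin chain that binds collagen on epithelial cells, fell by 0.29 ± 0.09 with shDBD (limma adjusted p = 0.0251) and by 0.34 ± 0.09 with shTA (adjusted p = 0.0475), and rose by 0.87 ± 0.07 with ΔNp63α (adjusted p = 1.57e-07) and by 0.63 ± 0.07 with TAp63γ (adjusted p = 1.9e-06). ITGA10, the integrin chain for cartilage collagen, fell by 0.73 ± 0.12 with shDBD, 0.6 ± 0.09 with ΔNp63α and 1.06 ± 0.09 with TAp63γ. SPARC, a collagen-binding matrix protein, rose by 1.01 ± 0.09 with ΔNp63α, and PEPD, which splits proline dipeptides from broken-down collagen, by 1.12 ± 0.09 with shDBD. ITGB1, the partner of both integrin chains, fell by 0.46 ± 0.08 with TAp63γ.

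Markers of other cell types were read beside these values, first those of fibroblasts, the main collagen makers in tissue. Of 12 measured, LUM, POSTN and TCF21 lay below the 20th percentile in all 6 groups. The summed linear level of the list, which the brightest members dominate, lay between 13743 and 14133 in the shRNA vector, 10877 and 11915 with shDBD, and 11670 and 11902 with shTA. The mean log2 level went the other way with shDBD, at 6.777 to 6.849 in the vector, 6.952 to 7.007 with shDBD and 6.845 to 6.853 with shTA. The sum lay between 8897 and 9886 in the overexpression vector, 8978 and 10053 with ΔNp63α, and 7943 and 9231 with TAp63γ. Mean levels there were 6.709 to 6.771, 6.688 to 6.757 and 6.731 to 6.807, in that order. With shDBD, 1 of 12 rose (DCN, by 2.37 ± 0.13) and 2 fell (VIM and FAP), 25% against 21.3% of all genes. With shTA 1 rose (DCN, by 0.83 ± 0.13), with ΔNp63α 1 fell (DCN, by 0.39 ± 0.11) and with TAp63γ 1 rose (FAP, by 1.11 ± 0.09), each 8.33% of the list, against 2.29%, 28.9% and 43.4% of all genes. The summed level of 4 smooth muscle markers lay between 823 and 865 in the shRNA vector, 1302 and 1592 with shDBD, and 679 and 728 with shTA. In the overexpression arm it lay between 644 and 711 with the vector, 500 and 602 with ΔNp63α, and 1576 and 1674 with TAp63γ. ACTA2, the member that passed, rose by 1.06 ± 0.15 with shDBD and 1.69 ± 0.12 with TAp63γ, and fell by 0.48 ± 0.12 with ΔNp63α. The sum of 4 immune markers lay between 676 and 744 in the shRNA vector, 1393 and 1560 with shDBD and 740 and 772 with shTA, and CD14 was the member that passed (1.27 ± 0.11 with shDBD, −0.48 ± 0.09 with ΔNp63α and −0.55 ± 0.09 with TAp63γ). In the overexpression arm that sum lay between 642 and 701 with the vector, 501 and 553 with ΔNp63α, and 482 and 530 with TAp63γ. ACTA2 and CD14 were each 1 of 4 of their list (25%) with shDBD, ΔNp63α and TAp63γ, against 21.3%, 28.9% and 43.4% of all genes. For 5 endothelial markers the sum was 426 to 457 in the shRNA vector, 482 to 494 with shDBD and 437 to 449 with shTA. It was 237 to 250 in the overexpression vector, 255 to 273 with ΔNp63α and 235 to 256 with TAp63γ. Of these markers 2 rose with shDBD (40%, against 21.3% of all genes) and 1 with ΔNp63α (20%, against 28.9%). With shTA and TAp63γ 0 passed, and CDH5 lay below the 20th percentile throughout. The control probe sets of actin, read as the 3′ minus the 5′ signal to gauge RNA quality, gave −0.0868 ± 0.00982 (SD, n = 2) with the shRNA vector, 0.0668 ± 0.0262 with shDBD and 0.102 ± 0.14 with shTA. In the overexpression arm they gave 0.17 ± 0.0578 (SD, n = 3) with the vector, 0.162 ± 0.0594 with ΔNp63α and 0.0772 ± 0.0663 with TAp63γ. Of the 7 epithelial markers, 1 rose and 2 fell with shDBD (42.9%, against 21.3% of all genes). With shTA 0 rose and 2 fell (28.6%, against 2.29%). With ΔNp63α 3 rose and 4 fell (100%, against 28.9%), and with TAp63γ 4 rose and 2 fell (85.7%, against 43.4%). The part of any of these in the collagen values was not tested.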

How the data were processed

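For each probe set the authors deposited a log2 value, and the submitters' processing notes name RMA. Its settings were not given in the sources used here. RMA equalizes arrays, so a change of most transcripts one way would not be seen. Of 22277 probe sets, 19064 had 1 symbol in the platform annotation, 1043 several and 2108 none, and 62 were array controls. The arms were taken as normalized separately. Groups were compared by limma 3.58.1 (R 4.3.3), with 1 mean per group over 15 arrays, 9 residual and 5.87 prior degrees of freedom, a variance trend and two-sided tests, checked on simulated data. The number of arrays limits the precision. Members, lists and tests were chosen with earlier results of these data known. Values per array are given for chains that passed against a vector and lay above the 20th percentile in a group compared (10 chains), and from the list of modifying genes up to 4 per direction and 2 that did not pass. Alternatives were a replicate block, separate arms, normalizations, filters, floors, probe sets, variance priors and leaving out each array. Upstream sequences are from RefSeq (GRCh38.p14).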

Additional observations from a re-analysis of the deposited data

How the results depend on the processing

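Each result was recomputed under 10 other settings and without each array in turn. The 18 chain values that passed against a vector kept their direction in all of these, and 15 of them passed in every setting in which they could be tested. The exceptions were COL6A1 with shDBD, COL6A3 with ΔNp63α and COL8A1 with TAp63γ. With each arm fitted on its own, 7 chains passed with shDBD and 3 with shTA, while the share of all genes rose to 31.2% and 8.89%. Flooring the arrays at their 20th percentile raised the count between the isoforms to 17 and the share of all genes to 50.3%; dim chains then share 1 floored difference, 0.0468. Without single arrays the count of passing chains was 4 to 6 with shDBD, 1 in every case with shTA, 3 to 7 between the hairpins, 3 to 4 with ΔNp63α, 9 to 11 with TAp63γ and 9 to 12 between the isoforms; the hairpin count of 3 came without shDBD replicate 2 or shTA replicate 2. A group left with 1 array was assumed to vary like the others. Differences near 0 changed sign: COL4A1 between the hairpins was −0.15 with the mean of its probe sets, −0.02 without shDBD replicate 2, and −0.0613 to 0.0755 over all left-out arrays. COL2A1 with ΔNp63α ranged from −0.0316, without overexpression vector replicate 3, to 0.137. The cause was not tested. Samples with the same replicate number showed no steady common deviation. In the knockdown arm r was 0.069, 0.00137 and 0.00615. In the overexpression arm it ranged from −0.628 to 0.476 with both signs, so the numbers were not taken as pairs. With the replicate block, 4 chains passed with shDBD, 1 with shTA, 6 between the hairpins, 4 with ΔNp63α, 10 with TAp63γ and 10 between the isoforms.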
